A study of Homo sapiens with 18 samples.

Results

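The NF-kB pathway, its chemokines and a set of its inflammatory target genes were examined in PANC-1 cells, a human pancreatic ductal adenocarcinoma line, after depletion or inhibition of PKR. The set was chosen by gene symbol with earlier results of these data known, so its shares called are not independent evidence. It held 39 of the 26485 genes listed in each deposited table, and all 39 symbols were found in both tables. It comprised 20 pathway components (5 NF-kB subunits, 4 IkB proteins, 4 kinases, 5 TRAF and cIAP proteins, and A20 with ABIN1) and 19 target genes (8 chemokines, 4 cytokines and 7 others). For depletion, cells received PKR siRNA 1, PKR siRNA 2 or a control siRNA. For inhibition, they received C16, a small-molecule PKR inhibitor, at 400 nM or 800 nM, or its vehicle DMSO. RNA was collected after 72 h in every group, and each of the 6 groups had 3 libraries. The libraries were prepared from polyadenylated RNA of a single cell line, and nothing in the labels says that replicates came from separate cultures, so the p-values measure the spread between libraries. The siRNA libraries and the C16 libraries carry different run labels and were normalized in separate tables, so every comparison was made within a table. Within a table all comparisons with control share the same control libraries. Members TNFAIP2, MAP3K14, C15orf48, PYCARD and CX3CL1 also stand on the study's own list of genes lowered by PKR siRNA 1, PKR siRNA 2 and 800 nM C16. That list does not name 400 nM. It was drawn from these samples, so the direction of its members is not independent evidence.

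NF-kB is a family of dimeric transcription factors built from RELA, RELB, c-Rel and the p50 and p52 products of NFKB1 and NFKB2. In resting cells IkB proteins hold the dimers in the cytoplasm. In the canonical branch the IKK complex phosphorylates IkB and frees mainly RELA dimers, whereas in the alternative branch the kinase NIK, encoded by MAP3K14, acts through IKK alpha to process the NFKB2 precursor into p52, which pairs with RELB. TRAF2, TRAF3 and the cIAP proteins keep NIK low in unstimulated cells. Several components, among them NFKBIA, TNFAIP3, BIRC3, RELB and NFKB2, are themselves NF-kB target genes. In pancreatic carcinoma cells the pathway is known for driving chemokines, cytokines and survival genes, and PKR is a double-stranded RNA sensor that has been tied to IKK activation.

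The short DNA element bound by NF-kB dimers, the kB consensus decamer, was looked for on both strands of the RefSeq promoter windows (GRCh38.p14, 250 bases before to 50 bases after a start), overlapping matches being merged. Windows were matched for 31 of the 39 members. The remaining members RELB, NFKBIE, IKBKB, CX3CL1, CCL2, LIF, IER3 and C15orf48 were not matched. A match was present in 16 of the 31 members (51.6%), against 13.3% of the 27305 genes with a window and 11.3% of all 35116 windows. Matches were found in 10 of 17 components (58.8%) and 6 of 14 target genes (42.9%). The lines that follow show matched decamers in capitals, with overlapping ones run together, each printed 5′ to 3′ on the strand of its gene. They were chosen to set components lowered by PKR siRNA 2 (NFKB2, BIRC3, TNFAIP3, TRAF3) beside components that were not (NFKB1, NFKBIA). Beside them stand target genes that were not called (CXCL1, CXCL5, IL6). CXCL1 had 134 reads over all libraries and was tested for the siRNAs, whereas CXCL5 had 1 read and IL6 had 0.
NFKB2 (chr10:102395514-102395553, plus strand, 176 to 167 bases before a start): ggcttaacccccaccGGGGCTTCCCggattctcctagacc
BIRC3, distal (chr11:102317270-102317309, plus strand, 199 to 190 bases before the start): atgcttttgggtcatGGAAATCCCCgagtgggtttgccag
BIRC3, proximal (chr11:102317334-102317373, plus strand, 135 to 126 bases before the start): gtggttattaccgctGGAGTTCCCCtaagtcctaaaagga
TNFAIP3 (chr6:137867177-137867216, plus strand, 67 to 58 bases before the start): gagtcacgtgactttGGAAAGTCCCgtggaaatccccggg
TRAF3 (chr14:102777401-102777440, plus strand, 33 to 24 bases before the start): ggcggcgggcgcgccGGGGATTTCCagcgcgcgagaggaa
NFKB1 (chr4:102501295-102501334, plus strand, 49 to 40 bases before a start): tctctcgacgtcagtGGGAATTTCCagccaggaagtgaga
NFKBIA (chr14:35404806-35404845, minus strand, 81 to 72 bases before the start): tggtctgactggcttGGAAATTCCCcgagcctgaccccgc
CXCL1 (chr4:73869299-73869339, plus strand, 79 to 69 bases before the start): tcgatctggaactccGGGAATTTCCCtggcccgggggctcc
CXCL5 (chr4:73998743-73998783, minus strand, 91 to 81 bases before the start): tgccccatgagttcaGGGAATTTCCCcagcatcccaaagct
IL6 (chr7:22727112-22727151, plus strand, 73 to 64 bases before the start): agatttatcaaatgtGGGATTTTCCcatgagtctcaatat
TNFAIP3 held a further match 55 to 46 bases before its start, which stands in lower case in its line, and NFKB2 held 3 further matches in its windows, which are not printed. CXCL1 and CXCL5 carried the same merged element. A match describes the letters in the window and is not a measurement of binding.

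The depth was 1512940 to 1873906 reads on genes per siRNA library and 894145 to 1474308 per C16 library. Values are TMM-normalized counts, that is, reads scaled between libraries and not for gene length. EIF2AK2, which encodes PKR, stood at 97.4 ± 5.21 (SD, n = 3) normalized counts in the control siRNA libraries, 11.1 ± 2.19 under siRNA 1 and 8.65 ± 0.726 under siRNA 2 (log2 fold change -3.04 and -3.35, limma with Benjamini-Hochberg adjusted p = 4.69e-18 and 2.58e-20). With C16 it stood at 42.5 ± 3.26 (400 nM) and 49.9 ± 1.38 (800 nM) against 49.8 ± 4.20 with DMSO. Among markers of other cell types, PTPRC, CD163, CD3E and MS4A1 of 7 leukocyte genes were at 0 in every library, the 4 endothelial genes summed to at most 2.1 normalized counts, and DCN and COL1A2 of 6 fibroblast genes were at 0. The leukocyte sum rested on CD68, which many cells express: it ranged from 149.3 to 172.5 with control siRNA, 212.2 to 278.5 under siRNA 1, 197.3 to 207.9 under siRNA 2, 53.3 to 62.2 with DMSO, 142.5 to 173.0 at 400 nM C16 and 106.9 to 126.7 at 800 nM C16. Without CD68 the other 6 leukocyte genes summed to at most 6.7 in any library. The fibroblast sum, mostly COL1A1, ranged from 84.2 to 117.1 with control siRNA, 26.3 to 32.2 under siRNA 1, 130.3 to 139.4 under siRNA 2, 148.7 to 184.3 with DMSO, 119.9 to 180.8 at 400 nM and 80.2 to 117.0 at 800 nM. Without COL1A1 the other 5 fibroblast genes summed to 2.1 to 8.6 with control siRNA, 3.3 to 4.8 under siRNA 1 and 23.9 to 26.3 under siRNA 2. In the C16 table they summed to 18.5 to 34.3 with DMSO, 17.3 to 21.3 at 400 nM and 21.9 to 25.6 at 800 nM. The part of these lists in the results was not tested. All libraries are labelled as the PANC-1 line. In RNA from whole cultures, fewer cells expressing a gene and less RNA per cell cannot be told apart.

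Levels between genes were compared per kb of exon within the control siRNA libraries, as mean ± SD of 3. CCL2, the monocyte chemoattractant, stood at 247 ± 31.5 normalized counts per kb and IER3, an early stress response gene, at 230 ± 17.5, and these overlapped. IER3 is annotated on 5 alternate scaffolds besides chromosome 6, so its length was taken from chromosome 6 alone and its level is uncertain. C15orf48 followed at 190 ± 14.6, NFKBIB at 161 ± 3.15, TNFAIP2 at 136 ± 2.29 and ICAM1 at 101 ± 5.49, each above the next without overlap as far as ICAM1, which overlapped NFKB2 at 99.2 ± 1.45. Among subunits the order was NFKB2, RELA (71.3 ± 3.43), RELB (36.9 ± 1.60), NFKB1 (28.8 ± 0.551) and REL (4.55 ± 0.481), with no overlap between neighbours in this order. In the DMSO libraries, which cannot be set against the siRNA table, the order was RELA (55.5 ± 5.01), NFKB2 (22.9 ± 2.49), NFKB1 (14.8 ± 1.58), RELB (6.72 ± 1.15) and REL (2.31 ± 0.518). The longest REL transcript in GENCODE 44 is repeat-rich, and 50.3% of its 75-base words also occur in other genes. It is longer than the 7827 exon bases of the counted gene, whose own shared part was not measured. How uncertain the REL value is for this reason is therefore not known.

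**Figure D1:**
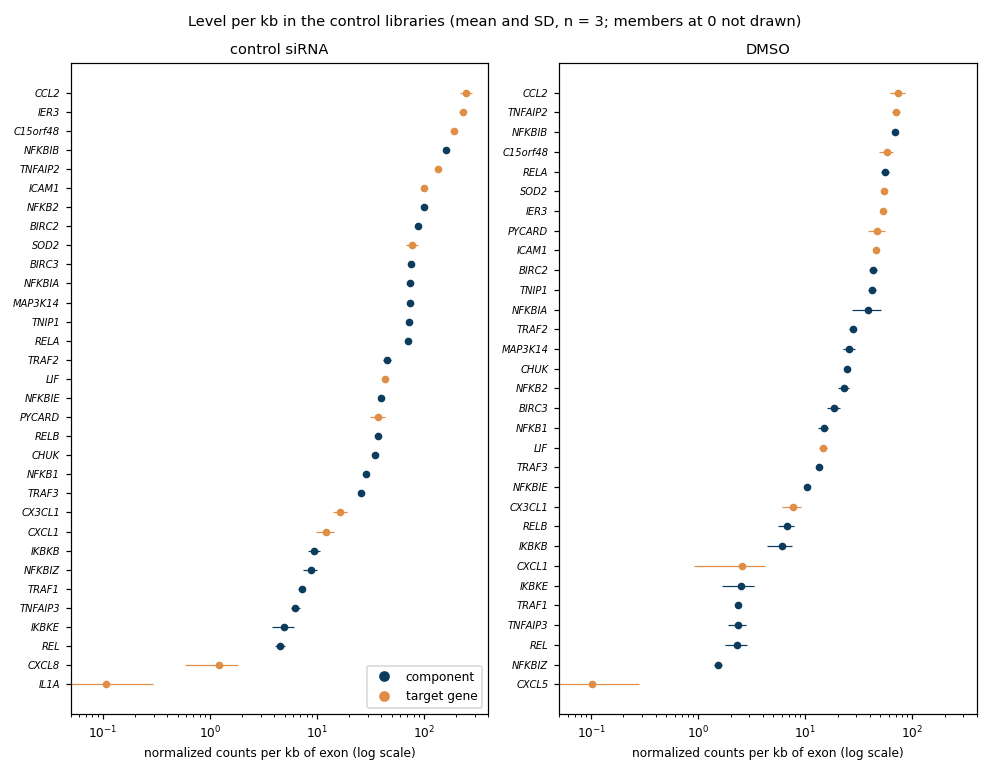
Level of each member per kb of exon (x axis, normalized counts per kb, log scale) in the control siRNA libraries (left) and the DMSO libraries (right), as mean and SD of 3 libraries, with components and target genes in different colours and members at 0 left out. CCL2 has the highest mean in both panels (247 ± 31.5 and 73.4 ± 12.1 per kb), overlapping IER3 in the left and TNFAIP2 (70.1 ± 5.99) in the right, and CXCL8, IL1A and CXCL5 stand at the foot.

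Members whose mean over a table reached 10 normalized counts were tested, which left 30 of 39 for the siRNAs (20 of 20 components, 10 of 19 targets) and 27 for C16 (18 and 9). A member was called raised or lowered at an adjusted p under 0.05 (limma on log2(normalized count + 1), Benjamini-Hochberg over all 10593 or 9963 genes tested) and a fold change over 1.5. Fold changes are on the log2(normalized count + 1) scale, which understates those of low genes. With PKR siRNA 1, 10 of 30 members were lowered and 2 raised, against a background of 12.6% lowered and 8.53% raised among all genes tested. With PKR siRNA 2, 19 of 30 were lowered and 0 raised, against 12.8% and 10.8%. The 19 include IKBKE, which reached the minimum mean only through the control group. The median log2 fold change of the members tested was -0.47 and -0.965 with the 2 siRNAs, and that of all genes tested was -0.01 in both comparisons. The count of 0 raised members held with edgeR and with DESeq2 on reads recovered from the table, and RELA was the only member above 0, at 0.37 with an adjusted p of 0.000151, under the fold threshold.

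C16 gave a mixed picture. At 400 nM, 5 of 27 members were lowered and 4 raised, against 5.45% lowered and 7.08% raised among all genes tested. At 800 nM, 7 were lowered and 5 raised, against 14.1% and 11.6%. Both lowered counts include CX3CL1, which reached the minimum mean there only through the DMSO group. The median log2 fold change of the members tested was -0.02 and -0.07. Without the 5 members on the study's own list, 1 of 22 was lowered and 4 raised at 400 nM, and 2 of 22 were lowered and 5 raised at 800 nM. In the siRNA table the same restriction left 5 of 25 lowered and 2 raised with PKR siRNA 1 and 14 of 25 lowered with PKR siRNA 2. The members left were also chosen with earlier results of these data known.

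With PKR siRNA 1, 4 of 20 components (20%, median log2 fold change -0.39) and 6 of 10 targets (60%, -0.93) were lowered, against 12.6% of all genes. With PKR siRNA 2 the counts were 12 of 20 components (60%, median log2 fold change -0.82) and 7 of 10 targets (70%, -1.11), against 12.8%. The 12 include IKBKE, which reached the minimum mean only through the control group. With C16 the share of components called was close to that of all genes, and 18 components are too few to set 0 raised apart from 7.08%. At 400 nM 1 of 18 was lowered (5.56% against 5.45%) and 0 raised (0% against 7.08%). At 800 nM 3 were lowered (16.7% against 14.1%) and 2 raised (11.1% against 11.6%). The 9 targets tested with C16 came out as 4 lowered (44.4% against 5.45%) and 4 raised (44.4% against 7.08%) at 400 nM. At 800 nM 4 were lowered (44.4% against 14.1%) and 3 raised (33.3% against 11.6%). The 4 lowered targets include CX3CL1, which reached the minimum mean there only through the DMSO group. All 4 stand on the study's list. Without that list, 0 of 5 targets were lowered and 4 raised at 400 nM, and 0 lowered and 3 raised at 800 nM. In the siRNA table the same restriction left 2 of 6 targets lowered and 1 raised with PKR siRNA 1. With PKR siRNA 2 it left 3 of 6 lowered. The difference between components and targets was not tested.

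**Figure D2:**
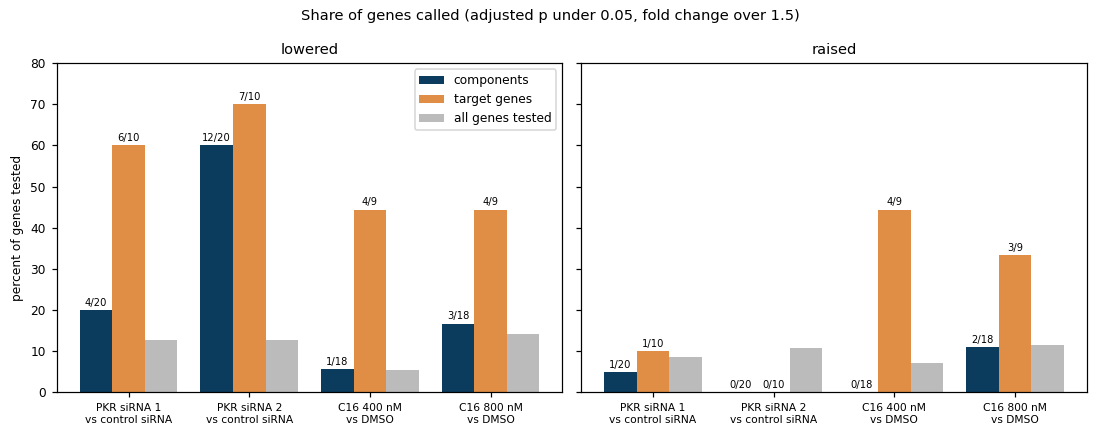
Percent of components, target genes and all genes tested (y axis) that were lowered (left) or raised (right) in each comparison with control, with the counts above the bars. With PKR siRNA 2, 12 of 20 components and 7 of 10 target genes were lowered against 12.8% of all genes. With 400 nM C16 4 of 9 target genes were lowered, all on the study's list, and 4 raised. The lowered counts include IKBKE with PKR siRNA 2 and CX3CL1 with C16, which reached the minimum mean only through their control groups.

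**Figure D3:**
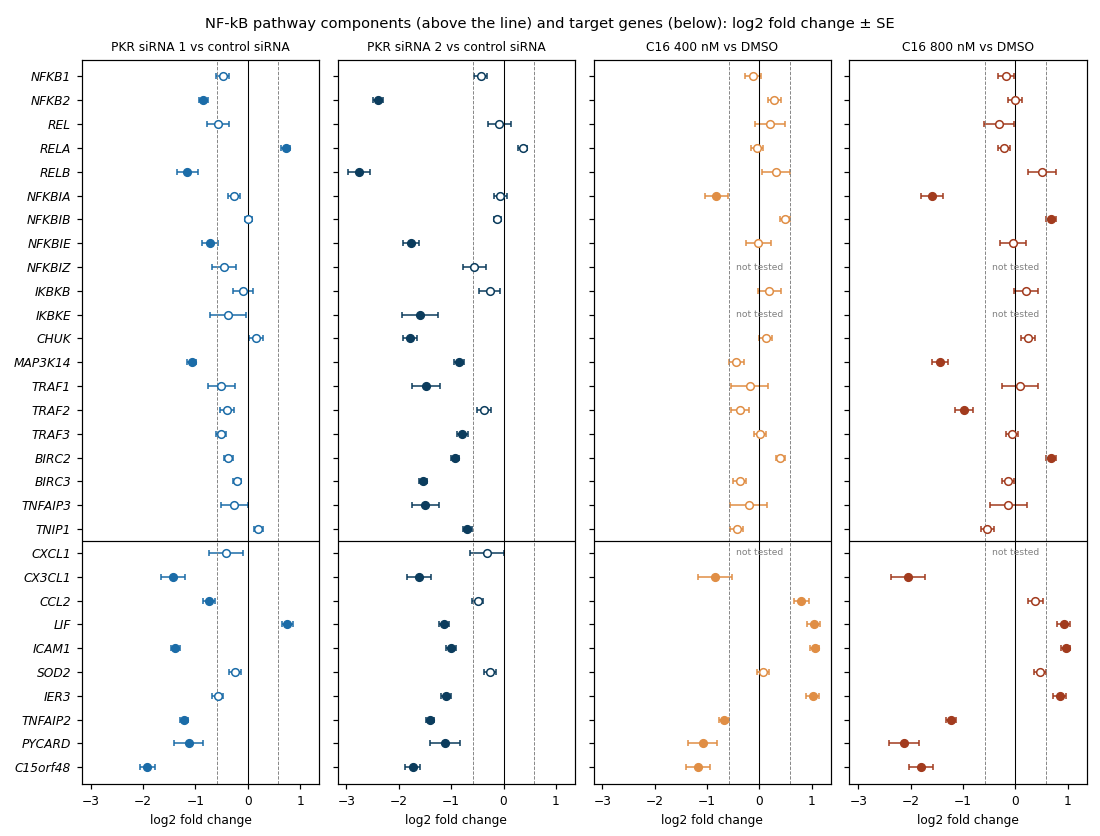
Log2 fold change with its SE (x axis) of each member tested, in the 4 comparisons with control siRNA or DMSO, with components above the horizontal line and target genes below it. Filled points were called, and dashed lines mark a fold change of 1.5. NFKB2 and RELB lie farthest left with PKR siRNA 2 (-2.40 and -2.76) and near or right of 0 with C16, while ICAM1, LIF and IER3 lie right of 0 with both C16 doses.

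The 2 subunits of the alternative branch were lowered by both siRNAs and more by PKR siRNA 2. NFKB2, the precursor of p52, had 390, 379 and 387 normalized counts with control siRNA, 231, 220 and 193 under siRNA 1, and 73.6, 71.8 and 70.5 under siRNA 2. The 3 groups did not overlap. The log2 fold change was -0.85 ± 0.09 (SE) with PKR siRNA 1 (limma, Benjamini-Hochberg adjusted p = 1.62e-12) and -2.40 ± 0.09 with PKR siRNA 2 (adjusted p = 5.73e-37). RELB, the partner of p52, had 80.1, 84.9 and 87.2 normalized counts with control siRNA, 31.1, 33.6 and 49.2 under siRNA 1, and 9.95, 11.8 and 13.2 under siRNA 2. Again no library of one group reached into the next. Its log2 fold change was -1.15 ± 0.20 (adjusted p = 2.03e-06) and -2.76 ± 0.20 (adjusted p = 3.57e-20).

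Neither of these subunits was called with C16. NFKB2 had 79.7, 88.6 and 99.0 normalized counts with DMSO, 95.7, 112 and 118 at 400 nM and 80.7, 86.5 and 98.3 at 800 nM, so the 800 nM and DMSO libraries overlapped. Its log2 fold change at 800 nM was -0.01, with a 95% interval from -0.26 to 0.25. RELB had 17.5, 12.4 and 16.0 with DMSO, 16.0, 24.2 and 18.1 at 400 nM, and 20.2, 21.9 and 23.9 at 800 nM. The 800 nM libraries all lay above the DMSO libraries, but the change of 0.51 (95% interval -0.02 to 1.04) did not pass the test.

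The canonical subunits were called once. RELA, the main transactivating subunit, was raised by PKR siRNA 1 from 184 ± 8.85 to 305 ± 11.1 normalized counts (log2 fold change 0.73, limma adjusted p = 8.11e-12) and stood at 237 ± 12.5 with PKR siRNA 2. NFKB1, the precursor of p50, was called in no comparison: it stood at 118 ± 2.25 with control siRNA, 85.1 ± 15.4 and 87.0 ± 9.62 with the siRNAs, and its adjusted p values of 0.00127 and 0.00299 went with changes (-0.48 and -0.44) under the fold threshold, the first of which passed it without PKR siRNA 1 replicate 3. REL, which encodes c-Rel, was called in no comparison either, at 35.6 ± 3.77, 24.2 ± 6.44 and 33.7 ± 4.54 in the siRNA table. Its log2 fold change of -0.57 with PKR siRNA 1 (limma adjusted p = 0.0255) became a call without control replicate 3 or PKR siRNA 1 replicate 1 or 3. With C16 the log2 fold changes of RELA, NFKB1 and REL lay between -0.31 and 0.20, none called.

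Of the 4 IkB members, which restrain or modulate the dimers, NFKBIE was lowered by the siRNAs, NFKBIA was lowered and NFKBIB raised by C16, and NFKBIZ was not called. NFKBIA encodes IkB alpha, the inhibitor rebuilt after each canonical response. It had 117, 121 and 113 normalized counts with control siRNA, 97.7, 85.3 and 110 under siRNA 1, and 95.5, 130 and 114 under siRNA 2. Its change with PKR siRNA 2 was -0.06, with a 95% interval from -0.30 to 0.18, and the libraries overlapped. With C16 it was lowered at both doses, from 68.0, 74.3 and 40.4 with DMSO to 34.0, 28.8 and 36.2 at 400 nM and 16.1, 18.3 and 22.9 at 800 nM. The 3 groups did not overlap, although the third DMSO library lay far below the other two. The log2 fold change was -0.82 ± 0.21 (limma, adjusted p = 0.00234) and -1.59 ± 0.21 (adjusted p = 8.62e-09), and 800 nM lay below 400 nM by a tested difference of -0.77 (adjusted p = 0.00951).

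NFKBIE, which encodes IkB epsilon, was lowered by both siRNAs. It had 94.5, 103 and 107 normalized counts with control siRNA, 57.8, 62.6 and 62.7 under siRNA 1 and 33.8, 27.9 and 26.3 under siRNA 2, with no overlap (log2 fold change -0.725, limma adjusted p = 7.28e-05, and -1.76, adjusted p = 1.8e-16). In the C16 libraries it had 28.2, 24.8 and 26.7 with DMSO, 29.8, 31.1 and 19.1 at 400 nM and 40.3, 21.9 and 19.1 at 800 nM. These overlapped, and the change at 800 nM was -0.04 (95% interval -0.53 to 0.44). NFKBIB, encoding IkB beta, was raised at 800 nM, from 162 ± 10.8 to 260 ± 9.71 (log2 fold change 0.69, adjusted p = 2.41e-08), and stood at 229 ± 34.2 at 400 nM, a change of 0.495 that was under the fold threshold. NFKBIZ, a nuclear IkB protein tested only in the siRNA table, was called with neither siRNA (-0.45 and -0.56). Leaving out replicate 3 of PKR siRNA 1 made the first a call, and leaving out control replicate 2 or 3 or PKR siRNA 2 replicate 2 made the second one.

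**Figure D4:**
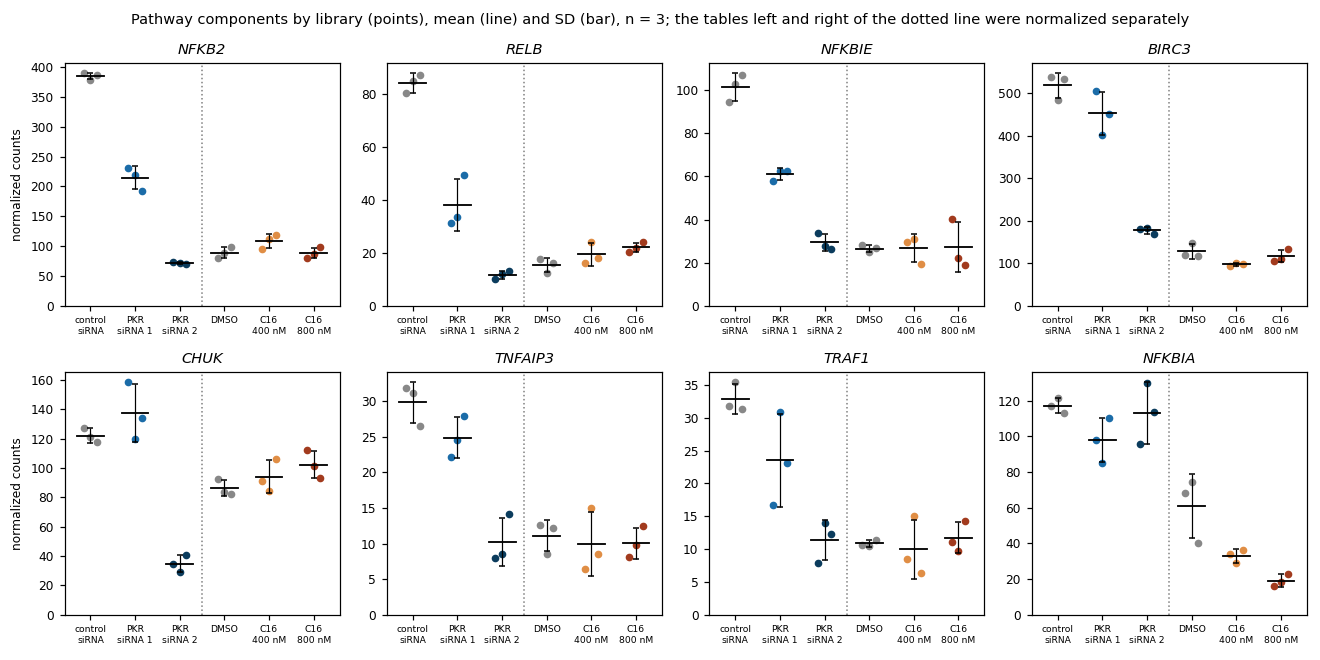
Normalized counts (y axis, from 0) of 8 pathway components in each library (points), with the group mean (line) and SD (bar) of 3 libraries. The siRNA table is left of the dotted line and the separately normalized C16 table right of it. NFKB2, RELB and NFKBIE step down from control siRNA to PKR siRNA 1 to PKR siRNA 2, CHUK and BIRC3 stand lowest under PKR siRNA 2 in the siRNA table, and NFKBIA steps down with C16 dose.

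Among the 4 kinases, CHUK and IKBKE were lowered by PKR siRNA 2 and MAP3K14 by both siRNAs and 800 nM C16. CHUK encodes IKK alpha, the kinase of the alternative branch. It had 127, 121 and 118 normalized counts with control siRNA, 159, 120 and 134 under siRNA 1, and 34.8, 29.0 and 40.4 under siRNA 2. Only the PKR siRNA 2 libraries stood apart (log2 fold change -1.80 ± 0.13, limma adjusted p = 5.22e-20), and the change with PKR siRNA 1 was 0.16 (95% interval -0.10 to 0.43). With C16 it had 92.3, 83.8 and 82.2 with DMSO, 91.5, 84.2 and 106 at 400 nM and 112, 101 and 93.5 at 800 nM. The 800 nM libraries lay just above those with DMSO, and no change was called. IKBKE, an IKK-related kinase, had 21.6, 14.0 and 16.1 normalized counts with control siRNA, 12.2, 12.7 and 13.5 under siRNA 1, and 3.98, 5.36 and 5.64 under siRNA 2. The PKR siRNA 2 libraries lay below all others (log2 fold change -1.59 ± 0.34, adjusted p = 7.39e-05). The gene reached the minimum mean only through the control group, so its calls are no support. In the C16 table IKBKE was too low to be tested, at 5.83, 8.57 and 11.4 with DMSO, 3.19, 2.31 and 4.26 at 400 nM, and 2.02, 1.22 and 2.86 at 800 nM. Both doses lay below the DMSO libraries, for which an exact permutation test of 3 against 3 cannot go under its p of 0.1. IKBKB, encoding IKK beta, was called in no comparison, with changes from -0.265 to 0.21.

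MAP3K14, encoding NIK, stands on the study's list. It had 309, 339 and 355 normalized counts with control siRNA, 150, 178 and 149 under siRNA 1, and 202, 165 and 187 under siRNA 2. Both siRNA groups lay below all control libraries and overlapped each other (log2 fold change -1.07 ± 0.09, limma adjusted p = 2.64e-17, and -0.855 ± 0.09, adjusted p = 3.4e-13). In the C16 libraries it went from 115, 101 and 132 with DMSO to 80.8, 98.0 and 76.6 at 400 nM and 38.3, 51.2 and 37.2 at 800 nM. The 400 nM change of -0.44 was under the fold threshold, and the 800 nM change was -1.44 ± 0.14 (adjusted p = 1.81e-12). The difference between the doses was itself called (-1.001, adjusted p = 6.52e-07). A noncoding gene on the opposite strand, MAP3K14-AS1, covers 1.92% of the MAP3K14 exons.

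The TRAF and cIAP members assemble receptor complexes and control NIK. PKR siRNA 2 lowered 4 of 5 of them, against 12.8% of all genes tested. PKR siRNA 1 lowered 0 of 5, against 12.6%, and so few genes cannot set 0 apart from that share. BIRC3, encoding cIAP2, had 537, 483 and 534 normalized counts with control siRNA, 504, 403 and 451 under siRNA 1, and 180, 182 and 168 under siRNA 2. The first 2 groups overlapped and the last stood far below both (log2 fold change -1.54 ± 0.08, limma adjusted p = 2.5e-30). With DMSO it had 119, 149 and 116, with 400 nM C16 93.6, 100 and 98.9, and with 800 nM 106, 110 and 133, and it was not called. TRAF1, a TRAF protein induced by NF-kB, had 31.8, 35.5 and 31.3 normalized counts with control siRNA, 16.7, 30.8 and 23.2 under siRNA 1, and 7.96, 13.9 and 12.2 under siRNA 2. The siRNA 2 libraries lay below all others (-1.48 ± 0.26, adjusted p = 1.64e-06). Its change with PKR siRNA 1 was -0.50 (95% interval -1.02 to 0.02), which became a call without PKR siRNA 1 replicate 2. In the C16 table TRAF1 was 10.7, 10.5 and 11.4 with DMSO, 8.51, 15.0 and 6.38 at 400 nM and 11.1, 9.75 and 14.3 at 800 nM, which overlapped.

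TRAF3, the adaptor that brings NIK to its ligase, was lowered by PKR siRNA 2 from 200 ± 4.36 to 116 ± 12.0 normalized counts (log2 fold change -0.79, limma adjusted p = 3.31e-10) and stood at 141 ± 6.81 with PKR siRNA 1 (-0.51). BIRC2, encoding cIAP1, was lowered by PKR siRNA 2 (373 ± 13.8 to 196 ± 14.8, log2 fold change -0.92, adjusted p = 2.03e-16). It was raised by 800 nM C16 (184 ± 14.0 to 295 ± 11.5, 0.68, adjusted p = 6.58e-09). TRAF2, the adaptor that carries the cIAP proteins, was lowered only by 800 nM C16 among the comparisons with control (63.3 ± 4.83 to 31.7 ± 3.21, -0.98, adjusted p = 4.74e-06). Its changes with the siRNAs were -0.39 and -0.38.

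Of the 2 negative regulators, both were lowered by PKR siRNA 2, against 12.8% of all genes tested. Neither was called with PKR siRNA 1 or C16, which 2 genes cannot set apart from the share of all genes. TNFAIP3 encodes A20, the ubiquitin-editing enzyme that ends NF-kB signalling. It had 31.8, 31.2 and 26.5 normalized counts with control siRNA, 22.2, 24.5 and 28.0 under siRNA 1, and 7.96, 8.58 and 14.1 under siRNA 2. Only the last group lay apart (log2 fold change -1.50 ± 0.26, limma adjusted p = 1.44e-06). In the C16 libraries its libraries overlapped, at 12.6, 8.57 and 12.2 with DMSO, 6.38, 15.0 and 8.51 at 400 nM and 8.07, 9.75 and 12.4 at 800 nM. TNIP1, encoding the A20 partner ABIN1, went from 226 ± 6.46 to 139 ± 6.27 with PKR siRNA 2 (-0.695, adjusted p = 2.18e-10) and stood at 261 ± 11.7 with PKR siRNA 1. With C16 its log2 fold changes were -0.44 and -0.54, under the fold threshold, the latter passing it without DMSO replicate 2 or 800 nM replicate 3.

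The 2 siRNAs were compared directly, in which 10 of 30 members were lower and 0 higher with PKR siRNA 2 than with PKR siRNA 1, against 15.3% lower and 16.4% higher among all genes tested. Of the 10, 9 were components. CHUK differed most among the components (-1.96, limma adjusted p = 3.59e-22), followed by RELB (-1.60), NFKB2 (-1.56), BIRC3 (-1.34), TNFAIP3 (-1.24), IKBKE (-1.21), NFKBIE (-1.04), TRAF1 (-0.98) and TNIP1 (-0.90). The target gene was LIF. IKBKE reached the minimum mean only through the control group, so its difference is no support. EIF2AK2 itself differed by -0.31 between the siRNAs, with a 95% interval from -0.80 to 0.18. In the epithelial marker list of 6 genes the summed level ranged from 3051.9 to 3279.8 under siRNA 1 and 9585.6 to 10233.2 under siRNA 2, against 5358.1 to 5451.0 with control siRNA, and its part in these differences was not tested. Its genes did not move together: against control siRNA, 5 of 6 were lowered and 0 raised by PKR siRNA 1, and 2 were lowered, EPCAM most (-3.14), and 3 raised by PKR siRNA 2. The sum was 7171.3 to 7572.1 with DMSO, 6033.4 to 6544.2 at 400 nM and 5172.4 to 5684.9 at 800 nM C16, without overlap.

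The chemokines were measured in very unequal depth, and 3 of 8 could be tested for the siRNAs and 2 for C16. CX3CL1, a membrane-bound chemokine and a member of the study's list, was lowered in each of the 4 comparisons with control. It had 53.4, 64.5 and 47.4 normalized counts with control siRNA, 20, 24.5 and 15.4 under siRNA 1, and 14.9, 17.2 and 19.8 under siRNA 2. Both siRNA groups lay below the control libraries and overlapped each other (log2 fold change -1.43 ± 0.23, limma adjusted p = 1.8e-07, and -1.615 ± 0.23, adjusted p = 6e-09). With C16 it went from 19.4, 26.7 and 29.7 with DMSO to 10.6, 11.5 and 19.1 at 400 nM and 5.04, 7.31 and 3.82 at 800 nM. The highest 400 nM library came within 1 normalized count of the lowest DMSO library, and the 400 nM call (-0.854 ± 0.33, adjusted p = 0.0449) was lost under several alternatives, including DESeq2 and leaving out either of 2 DMSO libraries or of 2 treated ones (adjusted p up to 0.175). The 800 nM change was -2.055 ± 0.33 (adjusted p = 5.25e-07). In the C16 libraries CX3CL1 reached the minimum mean only through the DMSO group, so its C16 calls are no support.

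CCL2 was lowered by PKR siRNA 1 (184 ± 23.6 to 110 ± 14.2 normalized counts, log2 fold change -0.73, limma adjusted p = 4.78e-08) and stood at 131 ± 20.6 with PKR siRNA 2, a change of -0.495 under the fold threshold that passed it without PKR siRNA 2 replicate 3. It was raised by 400 nM C16 (54.8 ± 9.06 to 95.5 ± 4.22, 0.80, adjusted p = 1.16e-05) and stood at 71.2 ± 6.39 at 800 nM (0.38). CXCL1, a neutrophil chemokine, was called with neither siRNA, with changes of -0.42 (95% interval -1.07 to 0.23) and -0.32 (-0.97 to 0.34). Of the 75-base words of CXCL1, 0.273% also occur in its paralog CXCL2.

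The other chemokines were close to the limit of detection. CXCL8, encoding interleukin-8, had 3.08, 2.15 and 0.948 normalized counts with control siRNA, 7.78, 11.8 and 6.75 under siRNA 1, and 0, 1.07 and 0 under siRNA 2. The PKR siRNA 1 libraries all lay above the control libraries, but the gene was under the minimum mean and was not tested, and an exact permutation test gave its smallest possible p of 0.1. In the C16 table CXCL8 was at 0 in the 3 DMSO libraries, 1.06, 1.15 and 3.19 at 400 nM and 4.03, 3.66 and 6.68 at 800 nM. CXCL2, CXCL3, CXCL5 and CCL20 each had a mean under 1 normalized count in every group.

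Of the 4 cytokines, LIF alone had enough reads to be tested. LIF, an interleukin-6 family cytokine, had 169, 170 and 171 normalized counts with control siRNA, 254, 303 and 311 under siRNA 1, and 73.6, 70.8 and 86.5 under siRNA 2. The siRNAs moved it in opposite directions with no overlap between any groups (log2 fold change 0.76 ± 0.10, limma adjusted p = 1.21e-09, and -1.14 ± 0.10, adjusted p = 2.05e-16). The difference between the siRNAs was -1.90 (adjusted p = 2.35e-28). With C16 it was raised from 60.2, 52.4 and 61.7 with DMSO to 124, 119 and 116 at 400 nM and 105, 118 and 110 at 800 nM. Both doses lay above DMSO and overlapped each other (1.03 ± 0.12, adjusted p = 1.32e-09, and 0.92 ± 0.12, adjusted p = 1.09e-08).

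IL6, IL1B and the prostaglandin synthase gene PTGS2 were at 0 in all 18 libraries, in which 3 reads over the 25429269 reads on genes, the limit that a count of 0 allows, correspond to 0.118 CPM. That limit covers counting error only. IL1A, the remaining cytokine, had a mean of at most 0.742 normalized counts in any group. In all, 9 members were tested in neither table, and none of them had more than 53 reads over the 18 libraries.

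ICAM1 and IER3 were lower with PKR siRNA 2 and higher with C16 than in their controls. ICAM1, the leukocyte adhesion receptor, had 331, 307 and 342 normalized counts with control siRNA, 129, 120 and 125 under siRNA 1, and 159, 167 and 160 under siRNA 2. All treated libraries lay below the controls (log2 fold change -1.38 ± 0.09, limma adjusted p = 8.05e-23, and -1.01 ± 0.09, adjusted p = 4.23e-16). With C16 it had 151, 137 and 155 with DMSO, 305, 314 and 305 at 400 nM, and 270, 301 and 296 at 800 nM. All treated libraries lay above DMSO and those at 400 nM all lay above those at 800 nM (1.06 ± 0.09, adjusted p = 4.88e-15, and 0.96 ± 0.09, adjusted p = 6.17e-14). The difference between the doses was -0.09 (95% interval -0.27 to 0.08).

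IER3 had 289, 262 and 305 normalized counts with control siRNA, 179, 205 and 189 under siRNA 1, and 110, 135 and 158 under siRNA 2. The 3 groups did not overlap. The change of -0.58 ± 0.10 with PKR siRNA 1 (limma adjusted p = 6.41e-07) fell just short of the fold threshold and passed it without control replicate 2 or PKR siRNA 1 replicate 2, and that with PKR siRNA 2 was -1.09 ± 0.10 (adjusted p = 2.13e-16). With C16 it had 64.1, 71.4 and 64.0 with DMSO, 137, 138 and 130 at 400 nM and 106, 138 and 118 at 800 nM. Both doses lay above DMSO (1.01 ± 0.12, adjusted p = 9.98e-10, and 0.84 ± 0.12, adjusted p = 5.07e-08).

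**Figure D5:**
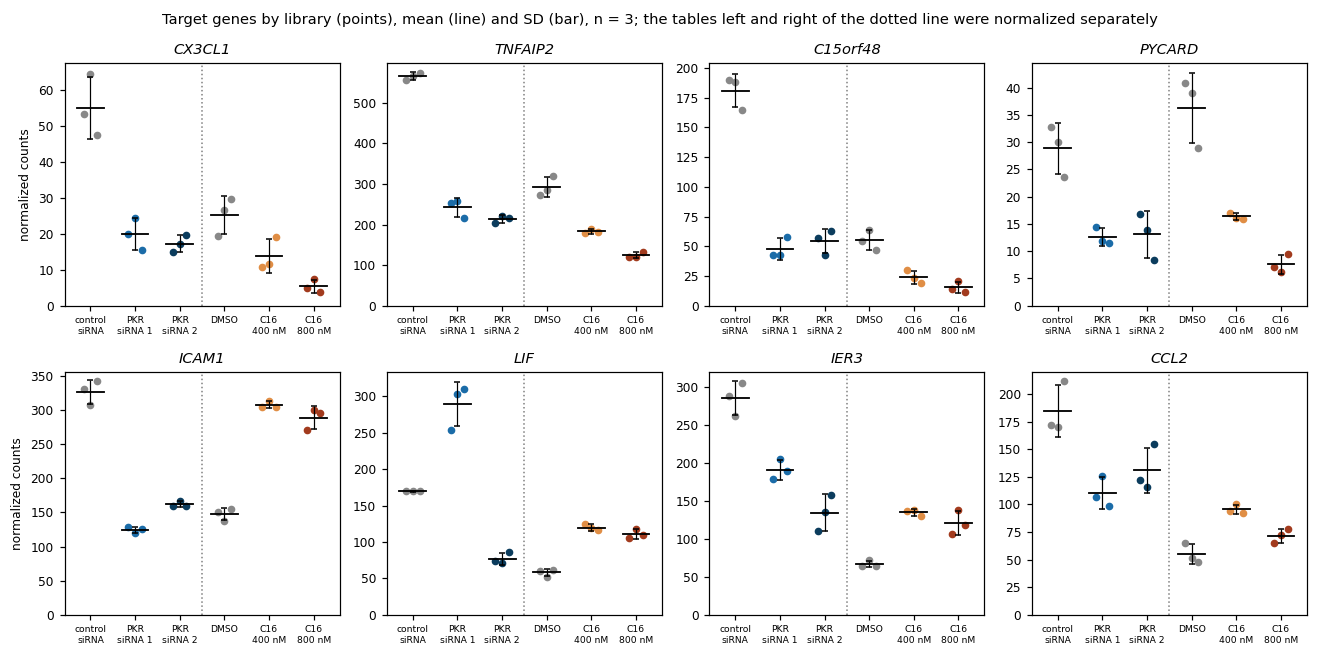
Normalized counts (y axis, from 0) of 8 target genes in each library (points), with the group mean (line) and SD (bar) of 3 libraries. The siRNA table is left of the dotted line and the separately normalized C16 table right of it. CX3CL1, TNFAIP2, C15orf48 and PYCARD lie below control in every treated group, whereas ICAM1 lies below control siRNA (327 ± 17.8) with both siRNAs and above DMSO (148 ± 9.44) with both C16 doses.

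TNFAIP2, C15orf48 and PYCARD, all on the study's list, were lowered in each comparison with control. TNFAIP2, a TNF-induced gene, had 556, 567 and 574 normalized counts with control siRNA, 253, 258 and 216 under siRNA 1, and 203, 222 and 215 under siRNA 2. Both siRNA groups lay below every control library (log2 fold change -1.22 ± 0.08, limma adjusted p = 1.08e-23, and -1.40 ± 0.08, adjusted p = 2.36e-27). In the C16 libraries it stepped from 272, 286 and 321 with DMSO to 179, 189 and 182 at 400 nM and 120, 119 and 133 at 800 nM, with no overlap (-0.67, adjusted p = 1.18e-07, and -1.23, adjusted p = 1.26e-16). The dose difference of -0.56 had an adjusted p of 1.94e-05 and was under the fold threshold, which it passed without 800 nM replicate 3.

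C15orf48, a small mitochondrial protein gene also known as NMES1, had 190, 188 and 165 normalized counts with control siRNA, 42.2, 42.6 and 57.9 under siRNA 1, and 56.7, 42.9 and 63.0 under siRNA 2. The siRNA groups overlapped each other and lay far below the controls (log2 fold change -1.92 ± 0.14, limma adjusted p = 5.22e-20, and -1.74 ± 0.14, adjusted p = 5.13e-18). With C16 it had 54.4, 63.8 and 47.2 with DMSO, 29.8, 23.1 and 19.1 at 400 nM and 14.1, 20.7 and 11.4 at 800 nM. The doses overlapped each other and lay below DMSO (-1.18 ± 0.23, adjusted p = 6.73e-05, and -1.80 ± 0.23, adjusted p = 3.12e-09). Its exons share 8.39% of their bases with MIR147B on the same strand.

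PYCARD encodes ASC, the inflammasome adaptor. It had 32.9, 30.1 and 23.7 normalized counts with control siRNA, 14.4, 11.8 and 11.6 under siRNA 1, and 16.9, 13.9 and 8.46 under siRNA 2. The treated libraries lay below the controls and overlapped each other (log2 fold change -1.13 ± 0.28, limma adjusted p = 0.000669, and -1.12 ± 0.28, adjusted p = 0.000679). With C16 it went from 40.8, 39 and 28.9 with DMSO to 17.0, 16.1 and 16.0 at 400 nM and 7.06, 6.09 and 9.54 at 800 nM, without overlap (-1.09 ± 0.28, adjusted p = 0.00214, and -2.13 ± 0.28, adjusted p = 4.77e-09). PYCARD-AS1 covers 41% of the PYCARD exons on the opposite strand, so the gene is uncertain if reads were counted without strand, but PYCARD-AS1, looked up after the values were seen, had a group mean of at most 1.78 normalized counts. SOD2, the mitochondrial superoxide dismutase, was called in no comparison, with changes from -0.25 to 0.47.

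The doses of C16 were also compared directly. At 800 nM 5 of 27 members were lower than at 400 nM and 0 higher, against 3.95% and 1.13% of all genes tested. They were CX3CL1 (log2 fold change -1.20, limma adjusted p = 0.00802), PYCARD (-1.04, adjusted p = 0.00698), MAP3K14 (-1.001), NFKBIA (-0.77) and TRAF2 (-0.61, adjusted p = 0.0121). With DESeq2 on recovered reads 1 of the 5, MAP3K14, was called. The TRAF2 call was also lost with a pseudocount of 5 and with median-of-ratios scaling. It was lost as well without 400 nM replicate 2 or 800 nM replicate 1 or 3. The CX3CL1 call was lost without 400 nM replicate 3. CX3CL1 reached the minimum mean in these libraries only through the DMSO group, so its call is no support.

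Within the siRNA table, 5 of 13 members lowered by PKR siRNA 2 that had a promoter window held a kB match (38.5%), and so did 6 of 9 tested members that were not lowered (66.7%). Among all genes tested in that table with a window, 17.5% held one, and among all genes lowered by PKR siRNA 2, 19.8%. Of the members on the study's list, 0 of 3 with a window held a match, and of the 5 lowered by 800 nM C16 with a window, 1 did. Both of these sets, the 13 lowered by PKR siRNA 2 and the 31 members with a window include TNFAIP2, whose window lay away from the counted gene.

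A list of 41 further pathway genes was examined for comparison. With PKR siRNA 1, 3 of 36 tested were lowered (8.33%, against 12.6% of all genes) and 4 raised (11.1% against 8.53%). With PKR siRNA 2, 7 were lowered (19.4% against 12.8%) and 2 raised (5.56% against 10.8%). At 400 nM C16, 1 of 34 was lowered (2.94% against 5.45%) and 4 raised (11.8% against 7.08%). At 800 nM, 6 were lowered (17.6% against 14.1%) and 2 raised (5.88% against 11.6%). The median log2 fold change stood between -0.08 and 0.04. IRAK1 and IRAK2, kinases of the interleukin-1 receptor, were lowered by PKR siRNA 2 (-1.17 and -1.44), as were the linear-ubiquitin hydrolase gene OTULIN (-1.10) and NKIRAS1 (-1.58), an IkB-interacting Ras-like protein, which overlaps RPL15 on the opposite strand over 12.2% of its exons. IL1RAP, the interleukin-1 co-receptor, had a mean of 17.9 normalized counts with PKR siRNA 1 and 6.8 with control siRNA, and TNFRSF1B, a TNF receptor, 17.1 at 400 nM and 18.6 at 800 nM C16 against 7.85 with DMSO. In these comparisons both reached the minimum mean only through the groups in which they were high, so these calls are no support. In the siRNA table TNFRSF1B was raised by PKR siRNA 2, from 89.3 to 161.4 (log2 fold change 0.846, limma adjusted p = 2.74e-09). It stood at 79.6 with PKR siRNA 1. At 800 nM the RNA-sensing adaptor MAVS (-1.04), TAB1 (-1.07) and BCL3 (-1.22) were lowered.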

How the data were processed

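Polyadenylated RNA of PANC-1 cells was sequenced as 75 bp read pairs by the authors, aligned with TopHat to hg38 and counted per gene with featureCounts, and the deposited values are a TMM-normalized signal per gene in 2 tables of 9 libraries. The annotation release and strand setting are not given in the sources used here. Low values stepped in whole multiples of 1 read (tolerance 0.01), so reads were recovered for depth and count tests. Libraries were grouped by their titles. Log2(normalized count + 1) was fitted with limma 3.58.1 (trend, all 9 libraries of a table, 1 mean per group) in R 4.3.3 for genes whose mean reached 10, and p-values were adjusted by Benjamini-Hochberg. Calls needed an adjusted p under 0.05 and a fold change over 1.5. Alternatives were pseudocounts of 0.5 and 5, no minimum mean or one of 30, median-of-ratios scaling, edgeR 4.0.16, DESeq2 1.42.0, a replicate block, a fit of only the groups compared, and leaving out each library. In simulated data limma recovered 73 of 92 genes changed by 1 on the log2 scale and 107 of 108 changed by 2 in the siRNA table (8 false calls among 10528 genes), and 93 of 102 and 97 of 98 in the C16 table (9 among 9874). Members with a call of at least 1 on the log2 scale, or called in at least 3 of 4 comparisons with control, are given in every library. Other genes are named where called with a log2 fold change of at least 1 in size. The members and lists were chosen with earlier results of these data known. Promoter windows came from RefSeq, and exon overlaps were taken from the coordinates in the tables.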

Additional observations from a re-analysis of the deposited data

Results flagged for a closer look

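Members for which the effect of one treatment differed from that of another by a direct test (limma, adjusted p under 0.05 and fold change over 1.5) were the following, given as log2 fold changes. Between PKR siRNA 2 and PKR siRNA 1 they were CHUK (-1.96), LIF (-1.90), RELB (-1.60), NFKB2 (-1.56), BIRC3 (-1.34), TNFAIP3 (-1.24), IKBKE (-1.21), NFKBIE (-1.04), TRAF1 (-0.98) and TNIP1 (-0.90). Between 800 nM and 400 nM C16 they were CX3CL1 (-1.20), PYCARD (-1.04), MAP3K14 (-1.001), NFKBIA (-0.77) and TRAF2 (-0.61). With DESeq2 only MAP3K14 of these 5 was called, and TRAF2 lost its call in 6 settings in all. IKBKE and CX3CL1 reached the minimum mean only through the control siRNA and DMSO groups, so their differences are no support.

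Further members were lowered by an siRNA and raised by C16. The siRNA and C16 libraries lie in separate tables with their own controls and run labels, and the difference between the treatments was not tested. BIRC2 changed by -0.92 with PKR siRNA 2 and 0.68 with 800 nM C16. CCL2 changed by -0.73 with PKR siRNA 1 and 0.80 with 400 nM C16. LIF changed by -1.14 with PKR siRNA 2, but 0.76 with PKR siRNA 1, 1.03 with 400 nM C16 and 0.92 with 800 nM C16. ICAM1 changed by -1.38 with PKR siRNA 1, -1.01 with PKR siRNA 2, 1.06 with 400 nM C16 and 0.96 with 800 nM C16. IER3 changed by -1.09 with PKR siRNA 2, 1.01 with 400 nM C16 and 0.84 with 800 nM C16. Groups of 3 libraries were too small to be screened for single outlying libraries.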

How the results depend on the processing

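Over 3207 alternative values of the 171 member changes tested, 3169 kept their side of the thresholds, 17 lost the call, 21 gained one and 0 called values reversed. Among the 3169, 58 values that were not called turned sign. A total of 4 counts of members called moved by over 1.5 times, under 3 settings. With a minimum mean of 30, which tests fewer genes, 3 instead of 5 members were lowered at 400 nM C16 and 3 instead of 5 between the doses. With DESeq2, 1 instead of 5 was lowered between the doses, and the cause was not tested. Without PKR_siRNA_1 replicate 3, 1 member instead of 0 was higher with PKR siRNA 2 than with PKR siRNA 1, and leaving out any other library left 0. Leaving out each library in turn gave 10 to 13 members lowered by PKR siRNA 1, 19 to 20 by PKR siRNA 2, 4 to 5 by 400 nM and 7 to 8 by 800 nM C16, 10 to 12 between the siRNAs and 4 to 6 between the doses. Deviations of libraries with the same replicate number correlated at -0.049 to 0.032. Libraries of a group differed by a chi-square per degree of freedom of 1.03 to 1.627, where counting error alone gives 1. Much of the deviation can thus be counting error, so the correlations cannot tell whether the numbers pair the libraries. A fit with the replicate block gave 10, 19, 10, 5, 7 and 5 members lowered in the 6 comparisons. It gave 2, 0, 0, 4, 5 and 0 raised, and all are the counts of the fit without it.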

Other observations

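Beside the 39 members, 25 other known NF-kB target genes were looked up, of which 9 could be tested for the siRNAs and 7 for C16. PKR siRNA 1 lowered 4 (44.4%, against 12.6% of all genes tested) and raised 2 (22.2% against 8.53%), and PKR siRNA 2 lowered 4 (44.4% against 12.8%) and raised 1 (11.1% against 10.8%). With C16, 0 were lowered (5.45% of all genes) and 2 raised (28.6% against 7.08%) at 400 nM, and 2 were lowered (28.6% against 14.1%) and 2 raised (28.6% against 11.6%) at 800 nM. Several of these genes reached the minimum mean only through the groups in which they were high, so the counts are no support. BCL2A1, an anti-apoptotic BCL2 family gene, had a mean of 24.8 ± 5.71 (SD, n = 3) normalized counts in the control siRNA libraries and 2.05 ± 1.14 under siRNA 2 (log2 fold change -3.13, limma with Benjamini-Hochberg adjusted p = 4.01e-14) and was raised by siRNA 1 (0.79). Its mean was 3.48 with DMSO, 16.4 at 400 nM and 19.1 at 800 nM C16, and it reached the minimum mean there only through the C16 groups. IL32, a cytokine gene, had a mean of 23.3 in the control siRNA libraries, 8.93 under siRNA 1 and 0.645 under siRNA 2, and reached the minimum mean only through the control group. The inflammasome cytokine gene IL18 (-1.31) and the transcription factor gene IRF1 (-1.09) were lowered by PKR siRNA 2, which raised GADD45B (1.08), and IL11, an interleukin-6 family cytokine, had a mean of 23.4 under siRNA 1 and 9.63 in the control siRNA libraries, reaching the minimum mean only through the former.

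Of 6 inflammasome genes looked up beside PYCARD, NLRP1, NLRP3, NLRC4, AIM2 and CASP1 had a mean of at most 1.36 normalized counts in every group. GSDMD, which encodes the pore-forming gasdermin D, was lowered by PKR siRNA 2 (-0.66) and by 800 nM C16 (-0.73).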
